A study of Mus musculus with 4 samples.

Results

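Pax7 occupancy was examined around 8 genes that encode parts of the dystrophin-associated complex and its laminin ligand: Lama2, Dag1, Sgca, Sgcb, Sgcd, Dtna, Sntb1 and Utrn. The regions were Pax7 ChIP-seq peaks whose summit, the position of highest signal, lay between 100 kb before the start and 100 kb after the end of a gene. The gene limits came from the GENCODE vM1 annotation of the NCBIM37 (mm9) mouse genome. By this rule 53 of the 20579 Pax7 peaks belonged to the 8 genes. A peak within 100 kb of a gene is not thereby shown to act on it, so each peak is described by its position, and the protein-coding gene with the nearest transcription start site (TSS) is named where it was another gene.

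The dystrophin-associated complex links the actin cytoskeleton of the muscle fibre to the basement membrane. Outside the cell, laminin-211, whose α2 chain is encoded by Lama2, binds dystroglycan, the product of Dag1, and the sarcoglycans (Sgca, Sgcb, Sgcd) stabilise dystroglycan in the membrane. Inside the cell, dystrophin or its autosomal paralog utrophin (Utrn) holds the complex to actin and recruits dystrobrevins (Dtna) and syntrophins (Sntb1), and loss of several of these proteins causes muscular dystrophy.

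The cells were iPax7 cells, a line of mouse embryonic stem (ES) cells carrying a Pax7 transgene that doxycycline (Dox) switches on. All 4 libraries, 2 of Pax7 ChIP and 2 of input chromatin, came from the same state: cells differentiated in serum, sorted as PDGFRα+FLK1- on day 5, given 1 µg/ml Dox from day 3, and collected on day 9 after 6 days of Dox. The peaks therefore describe transgene-driven Pax7 in 1 ES-derived line, with no state lacking Dox to set beside it. The libraries of each kind were merged before peak calling, so the list holds 1 value per peak, without replicate error and without read counts, and no difference below was tested. Fold enrichment is the ratio of pooled ChIP signal to local background at the summit, as given by the peak caller MACS2. A peak list holds no expression values, so the identity of the cells could not be checked against marker genes.

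The DNA under the summits is shown for the strongest peak of each gene and for each peak with a paired-box motif, because the later values refer to these sites. Every stretch is the plus strand of NCBIM37, 5′ to 3′, with the summit in the middle and 50 bases on each side. The one at the Sgcb start site was shortened to the 83 bases outside the transcript. Lower case is plain sequence. Capitals mark matches to the DNA motifs of Pax proteins on either strand: the paired-box core GTCACG, the paired-plus-homeobox site ATTAGTCAC or ATTAGTCAT, and the homeodomain dimer, TAAT and ATTA with 2 or 3 bases between. In the Sntb1 intron 3 peak, the second and the third of these motifs overlap. No stretch is shown for Dtna. The Lama2 start-site peak carried no such motif and stands here because it lay at the start of its gene.
Utrn, strongest peak, chr10:12651425-12651525: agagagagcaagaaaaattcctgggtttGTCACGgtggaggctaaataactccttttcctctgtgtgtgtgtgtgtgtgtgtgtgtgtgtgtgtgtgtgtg
Utrn, upstream peak, chr10:12604591-12604691: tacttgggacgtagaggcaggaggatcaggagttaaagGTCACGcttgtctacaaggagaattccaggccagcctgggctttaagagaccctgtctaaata
Utrn, intron 1 peak, chr10:12544373-12544473: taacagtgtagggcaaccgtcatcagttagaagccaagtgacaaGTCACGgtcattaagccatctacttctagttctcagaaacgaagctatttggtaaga
Sgcb, start-site peak, chr5:74038984-74039066: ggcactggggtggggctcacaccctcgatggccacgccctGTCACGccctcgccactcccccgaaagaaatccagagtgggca
Sntb1, strongest peak, chr15:55480019-55480119: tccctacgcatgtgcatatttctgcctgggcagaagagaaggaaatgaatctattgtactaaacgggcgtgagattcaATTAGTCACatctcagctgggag
Sntb1, intron 3 peak, chr15:55578581-55578681: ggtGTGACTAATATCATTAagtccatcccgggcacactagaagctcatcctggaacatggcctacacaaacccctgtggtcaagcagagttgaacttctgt
Lama2, strongest peak, chr10:27204062-27204162: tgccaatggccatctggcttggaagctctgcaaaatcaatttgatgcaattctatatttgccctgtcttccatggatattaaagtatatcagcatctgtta
Lama2, start-site peak, chr10:27337226-27337326: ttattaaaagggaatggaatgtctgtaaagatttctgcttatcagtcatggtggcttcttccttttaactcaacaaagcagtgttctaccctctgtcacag
Sgcd, strongest peak, chr11:47202503-47202603: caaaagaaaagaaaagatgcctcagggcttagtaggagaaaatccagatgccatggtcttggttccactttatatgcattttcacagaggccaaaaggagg
Dag1, strongest peak, chr9:108243488-108243588: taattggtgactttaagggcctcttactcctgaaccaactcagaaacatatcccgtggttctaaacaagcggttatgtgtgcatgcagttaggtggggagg
Sgcb, strongest peak, chr5:74038505-74038605: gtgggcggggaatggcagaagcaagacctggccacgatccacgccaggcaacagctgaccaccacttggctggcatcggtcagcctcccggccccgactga
Sgca, only peak, chr11:94742170-94742270: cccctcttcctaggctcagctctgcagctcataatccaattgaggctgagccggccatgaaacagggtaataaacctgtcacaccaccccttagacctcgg

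The strongest Utrn window ends in a run of 40 bases of TG repeats on the right, and its GTCACG lay to the left of the summit, centred 19.5 bp away. The strongest windows of Lama2, Dag1, Sgcd, Sgca, Sgcb and Dtna held none of the 3 motifs, which left Utrn and Sntb1 as the genes whose strongest peak carried one.

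Every gene had at least 1 peak, but the numbers were uneven. Lama2 had 15 peaks and Utrn 13, together 52.8% of the 53. Dag1 and Dtna had 6 each, Sntb1 5, Sgcb 4, Sgcd 3 and Sgca 1. A peak in the same window was common over the genome: 75.2% of 22350 protein-coding genes had at least 1, so having one was no mark of these 8. Peaks inside the gene itself were rarer in general. Of the 8 genes, 7 (all but Sgca) had a peak in the gene body, against 22.3% of protein-coding genes, and these 7 include several very long genes. Sgcb and Lama2 had a peak within 1 kb of an annotated TSS of their own, 2 of 8 genes, against 14.1% of protein-coding genes.

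**Figure D1:**
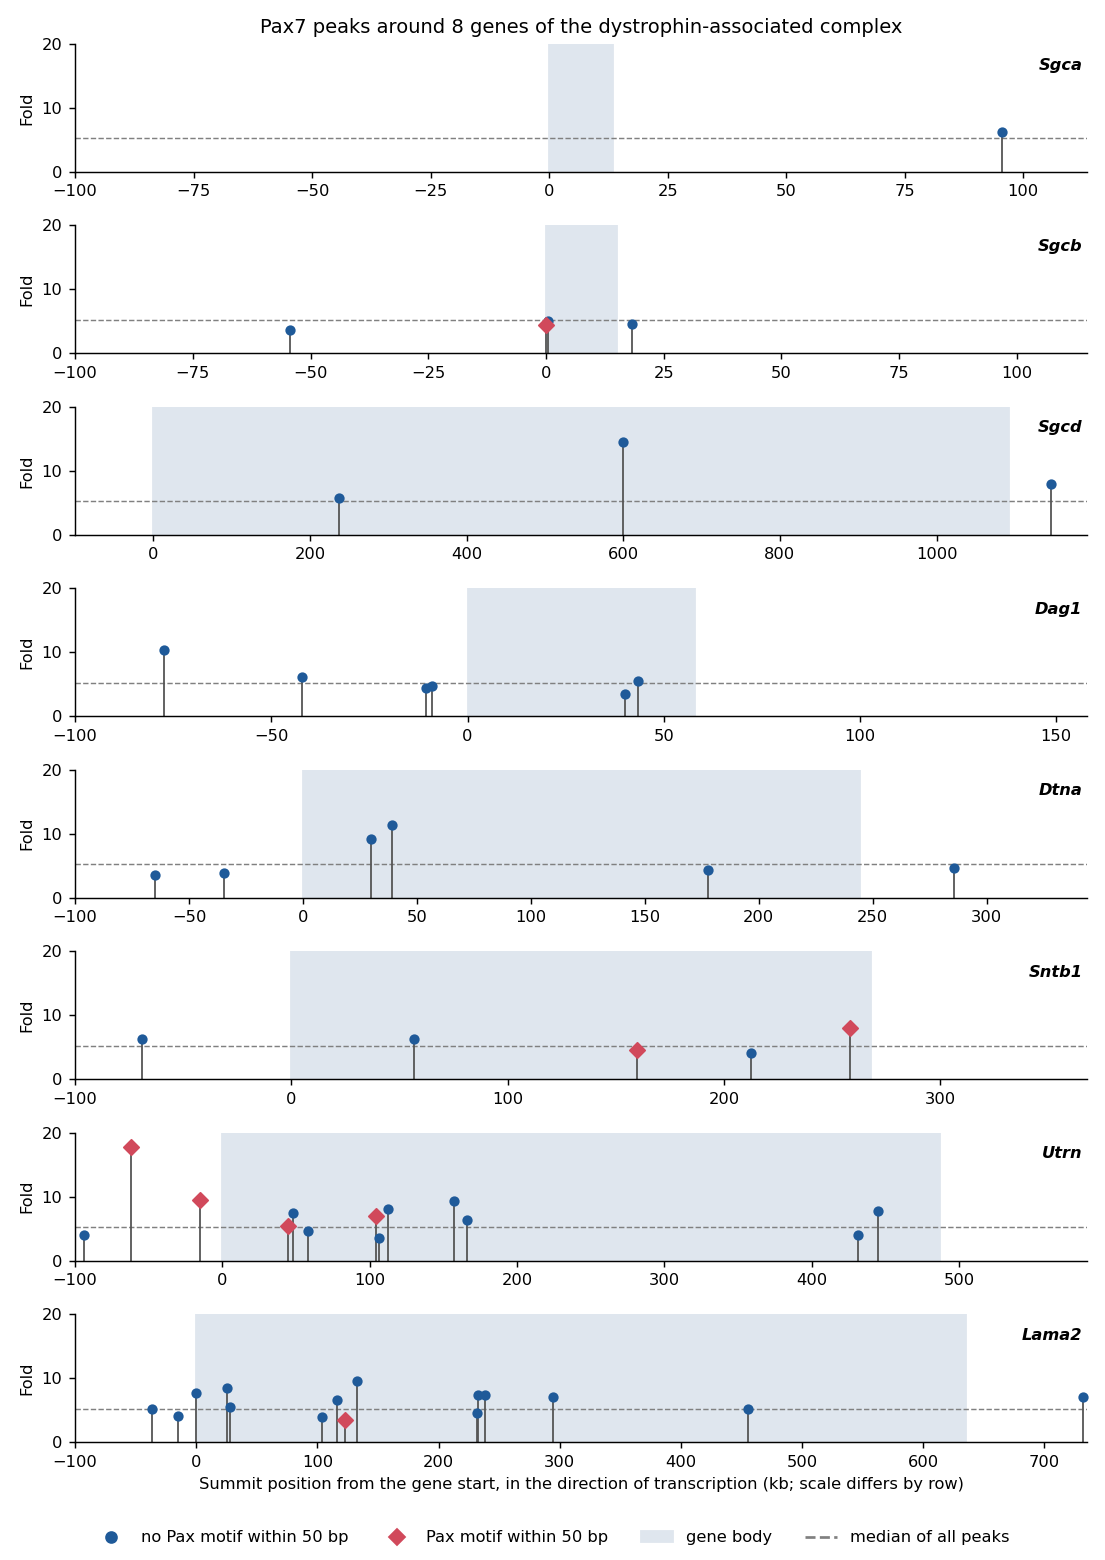
Map of the 53 Pax7 peaks in 8 panels, 1 per gene, with the summit position from the gene start in kb on the x axis (in the direction of transcription, scale differing by panel) and fold enrichment on the y axis. Shading is the gene body, diamonds are the 8 peaks with a Pax motif within 50 bp of the summit, circles the others, and the dashed line is the median of all peaks (5.22). Utrn and Lama2 carry peaks along the gene, while the Sgca peak lies 95.4 kb from the gene start.

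A longer window can hold more peaks, so each count was set beside protein-coding genes whose window was 0.8 to 1.25 times as long. Lama2, with 15 peaks in a window of 836 kb, had more than 92% of 150 such genes, which had a median of 5. Utrn, with 13 peaks in 687 kb, had more than 90.1% of 283 such genes, also with a median of 5. Dag1, with 6 peaks in 258 kb, had more than 88.1% of the 13686 genes of similar window, whose median was 2. These 3 genes stood high for their length. Sgcb (4 peaks in 215 kb, median 2), Dtna (6 in 444 kb, median 4) and Sntb1 (5 in 468 kb, median 4) had more than 73.8%, 63.2% and 53.4% of genes of similar window. Sgcd and Sgca were below the median of such genes: Sgcd had 3 peaks in 1293 kb where the median of 64 similar genes was 5 and 20.3% had fewer, and Sgca had 1 in 214 kb where the median was 2 and 27.1% had fewer.

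**Figure D2:**
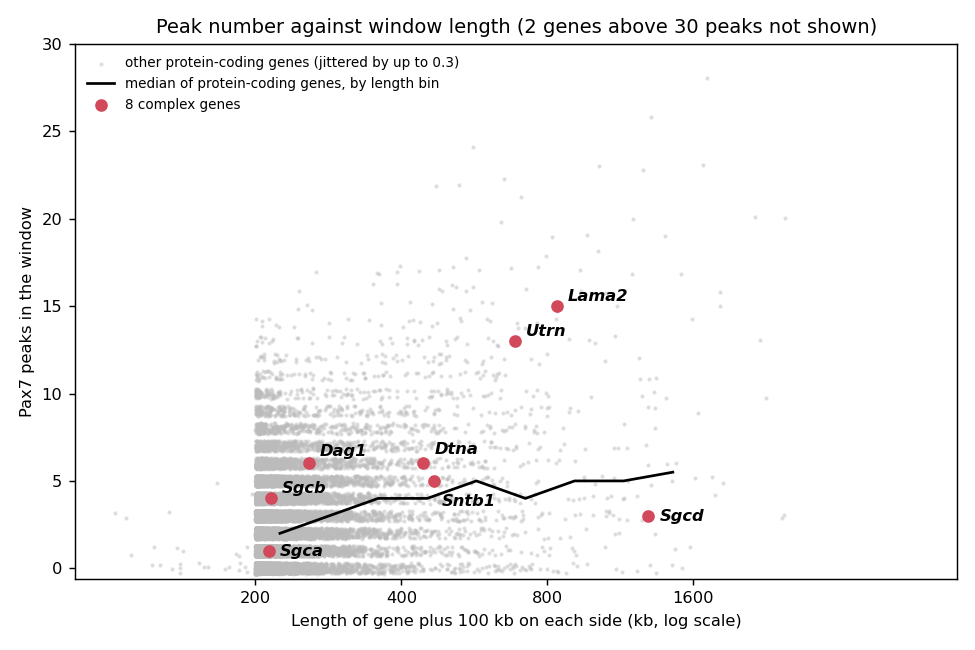
Number of Pax7 peaks (y axis) against the length of the gene plus 100 kb on each side in kb (x axis, log scale) for protein-coding genes in grey, with the 8 genes in red and the median by length bin as a line. Lama2 (15) and Utrn (13) lie above the median line, and Sgcd (3) lies below it. The 2 genes with more than 30 peaks are not drawn.

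Per length of sequence, the 8 windows together held 1.2 peaks per 100 kb (exact Poisson 95% interval 0.899 to 1.57, counting error only), over 4414 kb. The sequenced genome held 0.805 peaks per 100 kb and all protein-coding windows pooled held 1.06, which lies within that interval. The densest window was that of Dag1 with 2.33 peaks per 100 kb, followed by Utrn with 1.89, Sgcb with 1.86 and Lama2 with 1.80. Dtna had 1.35, Sntb1 1.07, Sgca 0.468 and Sgcd 0.232, against a median of 0.916 over protein-coding windows. By exact Poisson intervals for each gene, which cover counting error only, all 7 pairs of neighbours in this order overlapped. The interval of Sgcd (0.0479 to 0.678) lay below those of Dag1 (0.854 to 5.06), Utrn (1.01 to 3.24) and Lama2 (1.00 to 2.96). It overlapped those of Sgcb, Dtna, Sntb1 and Sgca. Each interval takes summits as independent, although some lay within 10 kb of each other, and no difference between genes was tested. Pooled over the 8 genes, density was 1.17 peaks per 100 kb inside the genes (33 peaks) and 1.25 outside (20 peaks). By gene, the density inside was higher at Sgcb (6.67 against 1.5), Dag1 (3.45 against 2), Utrn (2.05 against 1.5) and Sntb1 (1.49 against 0.5). It was lower at Lama2 (1.73 against 2), Dtna (1.23 against 1.5), Sgcd (0.183 against 0.5) and Sgca (0 against 0.5). Sgcd, with 2 peaks inside, gave 1093 kb of the 2814 kb of gene body, so the pooled value inside leans on it. Of the 20 outside, 15 lay upstream of the gene and 5 downstream, a share of 75% upstream (95% Wilson interval 53.1 to 88.8) against 50.3% over all pairs of a protein-coding gene and a peak in its flanks. That interval counts each summit as independent, although Dag1 had 4 of the 15 and Utrn and Lama2 had 3 each. Leaving out genes was not tried for this share.

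Lama2 (chr10:26701094-27336748, minus strand) encodes the α2 chain of laminin-211, the main laminin of the muscle basement membrane. A Pax7 peak lay at its TSS, with the summit 528 bp upstream (chr10:27336963-27337648), a fold enrichment of 7.67 and 21.9 as its −log10 q. At 686 bp it was the widest of the 53 peaks, whose median width was 277 bp. A further 11 peaks lay in the gene body, all in introns of a protein-coding transcript with 65 exons. Intron 1, which is 149 kb long, held 6 of them, or 4.02 per 100 kb. The strongest Lama2 peak was among these, 133 kb from the gene start, with 9.61-fold enrichment. In the same intron lay peaks of 8.37 and 5.41-fold at 25.4 and 27.6 kb, 3.84-fold at 104 kb, 6.63-fold at 116 kb and 3.49-fold at 123 kb. The last of these was the weakest Lama2 peak and the only one with a Pax motif, a homeodomain dimer 24 bp from the summit.

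Intron 4 of Lama2, 53.3 kb long, held 3 peaks within 6.38 kb, or 5.63 per 100 kb, with fold enrichments of 7.38, 7.32 and 4.48. Beyond intron 4 the gene body held 2 more peaks: intron 12 held a peak of 7.0-fold at 294 kb and intron 30 one of 5.21-fold at 455 kb. Upstream of the gene, 2 intergenic peaks of 4.13 and 5.22-fold lay 14.7 and 36.3 kb from the start. The remaining peak, of 6.98-fold, lay 96.2 kb beyond the 3′ end in an intron of Arhgap18, which also had the nearest TSS. Of the 15 Lama2 peaks 11 reached 5-fold, against 54.9% of all Pax7 peaks, and none reached 10-fold, against 6.99%. Their median peak, of 6.63-fold, lay above 73.6% of all peaks.

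Dag1 (chr9:108108286-108166255, minus strand) encodes dystroglycan, the laminin receptor at the centre of the complex. Its window is gene-dense, with 7 other protein-coding genes, and 4 of its 6 peaks lay nearer to another coding TSS. The strongest, of 10.4-fold, lay 77.3 kb upstream of Dag1 and 1.93 kb from the TSS of Gpx1, which encodes a glutathione peroxidase. A peak of 6.15-fold lay 22 bp from the TSS of Rhoa, which encodes a small GTPase of the actin cytoskeleton, 42.3 kb upstream of Dag1. These peaks lay near the starts of neighbours rather than of Dag1. Nearer to Dag1 itself, 2 intergenic peaks of 4.80 and 4.41-fold lay 9.08 and 10.6 kb upstream, only 1.47 kb apart. In intron 2, peaks of 5.52 and 3.48-fold lay 43.4 and 40.0 kb from the gene start, though the TSS of Bsn, a gene of the presynaptic active zone, was closer to both. No Dag1 peak lay within 1 kb of a Dag1 TSS, and none held a Pax motif.

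The sarcoglycan genes differed widely in peak strength and number. Sgca (chr11:94824105-94837641, minus strand), which encodes the α-sarcoglycan of striated muscle, had 1 peak of 6.26-fold, 95.4 kb from the gene start and 81.9 kb past its 3′ end. The nearest coding TSS was that of the type I collagen gene Col1a1, 55.3 kb away. The next peak beyond the window of Sgca lay 303 kb from the gene, so the surroundings of Sgca were poor in peaks.

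Sgcb (chr5:74023988-74038983, minus strand), which encodes β-sarcoglycan, had 4 peaks, all weak. A pair of summits 461 bp apart straddled its TSS: 1 lay 33 bp upstream at 4.36-fold (−log10 q 6.96), and the other 0.428 kb inside the gene, in intron 1, at 5.06-fold (−log10 q 9.14). The upstream summit had a GTCACG with its centre 10.5 bp away, shown in capitals in the Sgcb start-site sequence. Another peak, of 4.54-fold, lay on the 3′ side, 937 bp from the TSS of Lrrc66, and the fourth, of 3.72-fold, lay 54.4 kb upstream with Spata18 as the nearest gene. All 4 were below the median fold enrichment of all Pax7 peaks (5.22), although Sgcb was the only gene of the 8 with more than 1 peak at its own start. That pair became 1 peak when peaks closer than 500 bp were joined.

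Sgcd (chr11:46709755-47802471, minus strand), which encodes δ-sarcoglycan, showed the opposite: few peaks and a strong one. Its strongest peak (chr11:47202256-47202703) was enriched 14.5-fold (−log10 q 62.5) and ranked 279 of all 20579 peaks by fold enrichment. It lay 600 kb from the outermost gene start, in intron 1 of a protein-coding transcript, and 9.53 kb from the nearest annotated Sgcd TSS. A peak of 5.70-fold lay 237 kb from the gene start, where only a non-coding transcript of Sgcd has an intron. The third, of 7.91-fold, lay past the 3′ end of Sgcd in an intron of Timd4, a receptor gene of the immune system. The 3 Sgcd summits were 363 and 547 kb apart, each wider than any other gap between neighbouring summits of a gene, and none held a Pax motif.

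Dtna (chr18:23573916-23818215, plus strand) encodes α-dystrobrevin, which binds dystrophin and syntrophins on the cytoplasmic side. Its 2 strong peaks lay together in intron 1, 8.86 kb apart: 11.4-fold (−log10 q 68.4) at 38.9 kb and 9.15-fold (−log10 q 30.7) at 30.1 kb from the gene start. The stronger of them had the second highest −log10 q of the 53 peaks. A peak of 4.29-fold, 178 kb into the gene, lay in coding exon 8 of 22 and was the only one of the 53 with its summit in an exon of its listed gene. The other peaks were weak, with 3.84 and 3.49-fold at 34.8 and 64.9 kb upstream and 4.64-fold 286 kb from the start, past the 3′ end and nearer to the TSS of Mapre2. The −log10 q of 3.76 at the farthest upstream peak was the lowest of the 53. No Dtna summit held a Pax motif within 50 bp.

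Sntb1 (chr15:55470398-55738504, minus strand) encodes β1-syntrophin, an adaptor that binds dystrophin and dystrobrevin. Its 5 peaks were far apart, the closest pair 46.1 kb from each other. It was the only gene with the paired-plus-homeobox motif, and had it in 2 peaks. The strongest Sntb1 peak, of 8.03-fold (−log10 q 34), lay 258 kb from the gene start in intron 4, with ATTAGTCAC centred 32 bp from the summit. Its nearest coding TSS was that of Mtbp, 71.7 kb away. A peak of 4.54-fold in intron 3, at 160 kb, had the same motif on the other strand, 43 bp from the summit, overlapping a homeodomain dimer 37 bp from it. Both motifs of this peak therefore lay toward the edge of the window, as the capitals near its left end show. The peaks without a Pax motif had 6.28-fold at 69.0 kb upstream, 6.24-fold at 56.9 kb in intron 1, and 4.01-fold at 212 kb in intron 3. The last of these was also nearest to the TSS of Mtbp, 118 kb away.

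Utrn (chr10:12101986-12589163, minus strand) encodes utrophin, which takes the place of dystrophin in the complex in fetal muscle and at neuromuscular junctions. It had the strongest peak of the 53 (chr10:12651171-12651662), at 17.7-fold (−log10 q 121), rank 87 among all peaks and above 99.6% of them. This peak lay 62.3 kb upstream of the gene start between genes, and the nearest coding TSS was that of Stx11, 32.6 kb away. The next strongest, of 9.45-fold (−log10 q 36.2), lay 15.5 kb upstream and nearest to Utrn itself. Both held GTCACG, 19.5 and 9.5 bp from the summit, as did a peak of 5.40-fold in intron 1, at 3.5 bp. Utrn thus had 3 of the 4 peaks with a paired-box core. The remaining upstream peak, of 4.00-fold, lay 809 bp from the TSS of Stx11, a syntaxin gene.

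Inside Utrn 10 peaks lay in introns of a protein-coding transcript with 74 exons, none of them within 1 kb of a Utrn TSS. Intron 1 (96.2 kb) held 3 of them, with 5.40, 7.44 and 4.61-fold at 44.7, 47.9 and 58.4 kb, and the last lay 2.54 kb from an internal TSS. Intron 2, only 13.7 kb long, also held 3, with 6.96, 3.52 and 8.09-fold between 104 and 112 kb. The peak of 6.96-fold had a homeodomain dimer 13 bp from its summit. Deeper in the gene, peaks of 9.24 and 6.35-fold lay in introns 20 and 22, 8.75 kb apart, and peaks of 7.71 and 4.03-fold in introns 64 and 63. Between 166 and 431 kb Utrn held no peak, and 8 of its 10 body peaks lay between 44.7 and 166 kb.

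**Figure D3:**
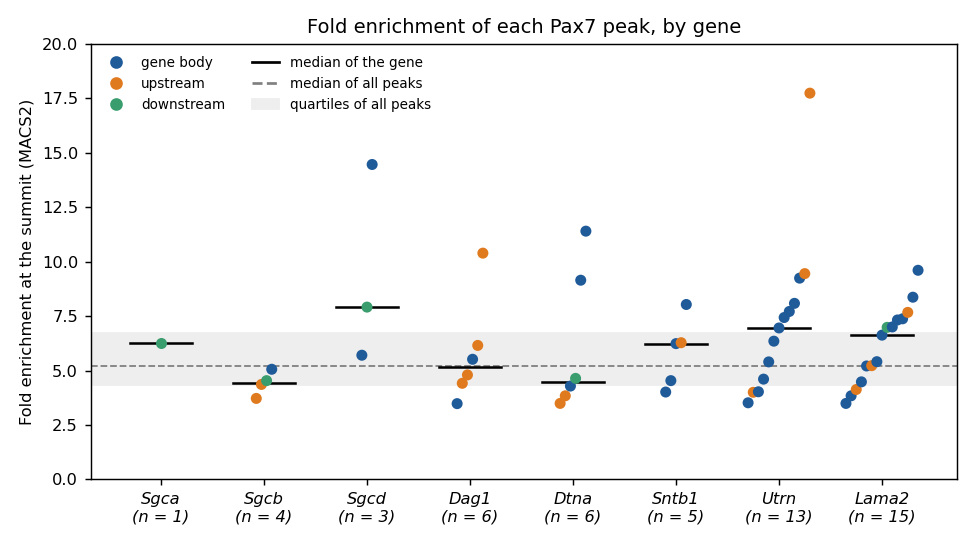
Fold enrichment at the summit (y axis) of each of the 53 peaks by gene (x axis, with the number of peaks), coloured by position in the gene body, upstream or downstream. Black lines are medians by gene, the dashed line and grey band the median (5.22) and quartiles (4.32 to 6.74) of all peaks. The peaks above 10-fold belong to Utrn, Sgcd, Dtna and Dag1.

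The peaks near the 8 genes were close in strength to Pax7 peaks in general. Their median fold enrichment was 5.70 (95% order-statistic interval 4.64 to 6.98, n = 53 peaks) with quartiles of 4.41 and 7.67, against a median of 5.22 and quartiles of 4.32 and 6.74 over all peaks. At least 5-fold enrichment was reached by 33 of the 53, or 62.3% (95% Wilson interval 48.8 to 74.1), against 54.9% of all peaks. At least 10-fold was reached by 4, or 7.55% (2.97 to 17.9), against 6.99% of all peaks. Those 4 peaks belonged to 4 genes, Utrn, Sgcd, Dtna and Dag1, and only the Utrn peak held a Pax motif. The 28 peaks of Utrn and Lama2 raised the median: without them it was 5.06. Peaks in gene bodies had a median of 6.24, upstream peaks 4.80 and downstream peaks 6.26.

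The summits of these genes lay mostly in introns. Of the 53, 33 lay in an intron of some gene, 62.3% (48.8 to 74.1) against 42.1% of all Pax7 peaks, and 31 of them were in introns of the listed gene. Intron 1 of a coding transcript held 14 summits over 6 genes, the inner Sgcb start-site summit among them. Within 1 kb of any annotated TSS lay 6 peaks, 11.3% (5.29 to 22.6), against 16.3% of all. These were the TSS peaks of Lama2 and Sgcb (3 peaks) and those at Lrrc66, Rhoa and Stx11. Between genes lay 13, or 24.5% (14.9 to 37.6), against 39.0%. The listed gene had the nearest coding TSS for 39 of 53 peaks, 73.6% (60.4 to 83.6). Because the rule takes in whole genes, 2814 kb of the 4414 kb of window were gene body. Pooled density was 1.17 peaks per 100 kb inside the genes and 1.25 outside, and by gene the difference went either way. The intron and intergenic shares thus cannot be read apart from the rule, and a preference for introns was not tested. Lama2, Utrn and Sgcd, the longest of the 8 genes, held 31 of the 53 peaks, and the part of gene length in these shares was not tested. The bases around the summits also varied by gene: the median GC content was 38.6% at Lama2 and 56.9% at Sgcb, against 45.5% over all Pax7 peaks.

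Many summits came in groups, and the interval of their share included the share of all peaks. Another summit lay within 10 kb of 23 of the 53, 43.4% (31.0 to 56.7), against 35.2% of all peaks. They formed 10 groups, 7 of 2 peaks and 3 of 3 peaks, and 6 of the groups lay in Utrn and Lama2. The tightest was the pair at the Sgcb TSS and the longest was the run of 3 peaks over 16.7 kb in Lama2 intron 1, of 6.63, 3.49 and 9.61-fold. Some groups mixed strong and weak peaks, as in Utrn intron 2 with 3.52 to 8.09-fold. Others did not: the Dtna pair was strong (9.15 and 11.4-fold). The pairs at the Sgcb TSS (4.36 and 5.06-fold) and upstream of Dag1 (4.41 and 4.80-fold) were weak.

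A Pax motif within 50 bp of the summit was found in 8 of the 53 peaks, 15.1% (7.85 to 27.1), against 14.6% of all Pax7 peaks. These 8 belonged to 4 genes: Utrn (4), Sntb1 (2), Sgcb (1) and Lama2 (1). The other 4 genes, Dag1, Dtna, Sgca and Sgcd, had none in 16 peaks, which says only that these letters were not in those windows. Stretches of the same length, 500 bp to the right and to the left of the 53 summits, held a Pax motif in 7.55% and 3.77% of cases. The same flanks of all peaks held one in 2.06% and 1.92%, where counting error is far smaller. The paired-box core occurred in 4 of 53, 7.55% (2.97 to 17.9), against 11.1% of all peaks. The paired-plus-homeobox site occurred in 2, 3.77% against 2.1%, and the homeodomain dimer in 3, 5.66% against 1.82%. Motif-bearing peaks near the 8 genes had a median of 6.18-fold and the others 5.70-fold.

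Motifs of other transcription factors known from muscle cells were read in the same windows on both strands. The TEAD motif GGAATG was the most frequent, in 10 of 53, 18.9% (10.6 to 31.4) against 11.0% of all peaks. The 10 peaks belonged to 6 genes, and 4 of them to Lama2, including its TSS peak, which held 2 matches. In the Lama2 peak of 7.38-fold in intron 4 the match was centred 0.5 bp from the summit. The E-box CAGCTG, bound by MyoD-family factors, occurred in 6, 11.3% (5.29 to 22.6) against 15.7%, and was present in the strongest peaks of Sgcb and Sntb1. The AP-1 motif TGANTCA occurred in 4, 7.55% against 6.82%, of which 3 were at Utrn and 1 at Lama2. The RUNX motif TGTGGT occurred in 5, 9.43% against 9.73%, and the control GCACTG in 5, 9.43% against 6.86%. In these windows of 50 bp, the interval of the 53 peaks included the share of all peaks for each motif but the homeodomain dimer. The dimer interval (1.94 to 15.4) rests on 3 peaks. With windows of 25 or 100 bp the interval for the dimer also included the share of all peaks (1.89% against 1.03%, and 5.66% against 2.50%). For TEAD it did not at 25 bp, with 7 of 53, 13.2% (6.55 to 24.8) against 5.71%. At 100 bp the TEAD interval again included it, with 26.4% (16.4 to 39.6) against 18.8%.

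**Figure D4:**
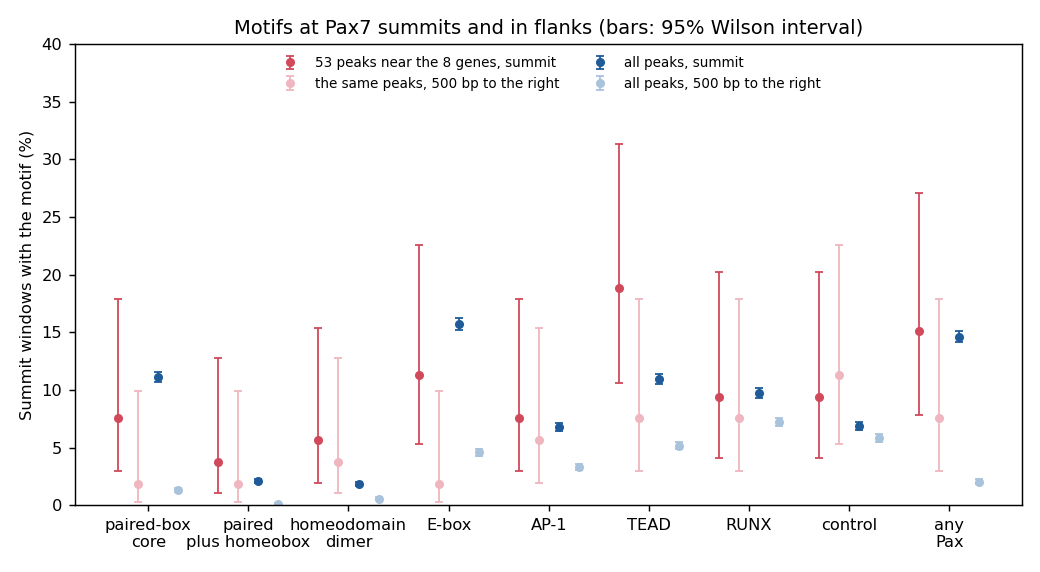
Share of windows of 50 bp on each side with each motif (y axis, %) for the 53 peaks near the 8 genes and all peaks, at the summit and 500 bp to the right, with 95% Wilson intervals as bars. The intervals of the 53 peaks are wide, from 10.6 to 31.4% for TEAD, and most of them take in the share of all peaks.

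A further 24 genes of the same pathway, listed by role, were read with the same rule, and 22 had at least 1 peak within 100 kb (78 peaks in all), where 75.2% of protein-coding genes had one. Of 11 other genes of the complex, 9 had a peak, with a median of 0.469 peaks per 100 kb. All 7 genes of laminin chains and the laminin receptor Itga7 had one, with a median of 1.78, and all 6 genes for enzymes that glycosylate dystroglycan had one, with a median of 1.12. The median density of the 11 complex genes was thus the lowest of the 3 groups. Dmd, which encodes dystrophin itself, had 3 peaks in its long window, 0.122 per 100 kb, of 4.71 to 6.80-fold. It lies on the X chromosome, which held 0.15 peaks per 100 kb against 0.85 on the autosomes. Sgcz, the ζ-sarcoglycan gene, and Sntg1, the γ1-syntrophin gene, had none.

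**Figure D5:**
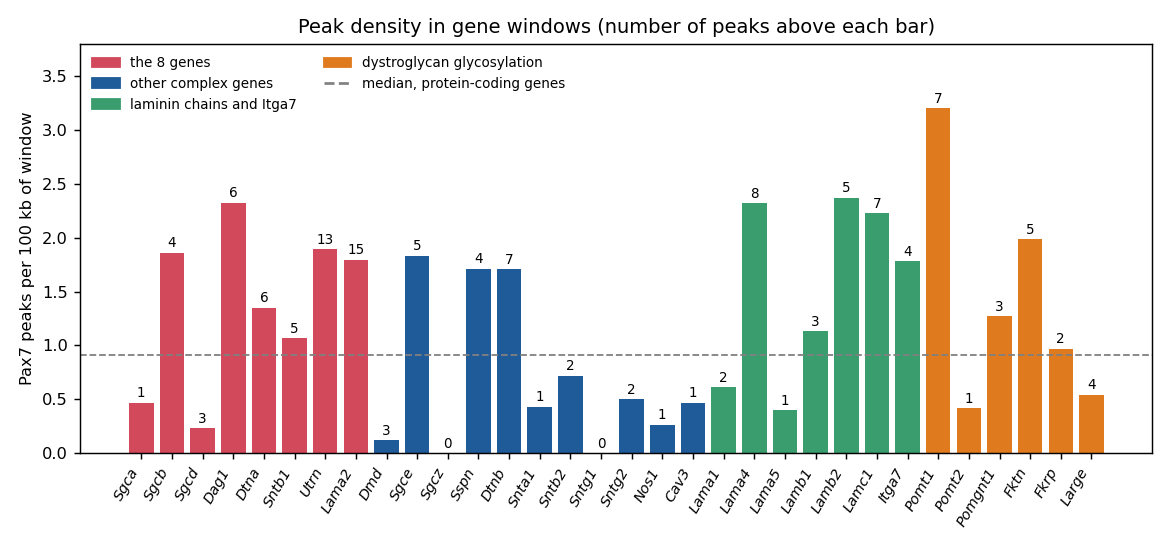
Pax7 peaks per 100 kb of window (y axis) for the 8 genes and the 24 other genes of the pathway (x axis), with the number of peaks above each bar and the median of protein-coding genes as a dashed line (0.916). Pomt1 has the highest bar with 7 peaks, Sgcz and Sntg1 have none, and Dmd has 3 in a long window.

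Of these 24 genes, 13 had a peak in the gene body and 3 a peak within 1 kb of their own TSS, against 22.3% and 14.1% of protein-coding genes. The 3 were Dtnb, the β-dystrobrevin gene, with a summit 85 bp from its TSS and 5.76-fold enrichment, Pomt1, an O-mannosyltransferase gene, with 8.48-fold at 11 bp, and Pomgnt1, a gene of the same glycosylation pathway, with 2.98-fold at 422 bp. Some of the 13 genes with a body peak are very long, as Dmd (2257 kb) and Large (539 kb), and the part of gene length was not tested. The median density of the 24 genes was 0.845 peaks per 100 kb, against 0.916 over protein-coding windows. The genes with the most peaks were Lama4 with 8, and Dtnb, Lamc1 and Pomt1 with 7 each. Utrn and Lama2, with 13 and 15, held more than any of them in number. Per 100 kb, Pomt1 (3.20), Lama4 (2.32) and Lamc1 (2.23) were denser than Utrn (1.89) and Lama2 (1.80), while Dtnb (1.71) was less dense. The dystrobrevin pair both had a strong peak, of 11.4-fold in Dtna and 15.4-fold in Dtnb. Sspn, the sarcospan gene, had a peak of 19.3-fold nearest to its own TSS, 67.3 kb from the gene start and chosen after its value was seen, which exceeded the 17.7-fold peak at Utrn.

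The limit of 100 kb decided membership. The outermost peaks kept lay 96.2 kb past Lama2 (6.98-fold) and 94.1 kb upstream of Utrn (4.00-fold). The nearest peaks left out lay 110 kb from Sgcb (7.41-fold) and 112 kb from Sntb1 (3.26-fold). For Sgcd, Sgca and Dtna the nearest peak left out was far beyond the limit, at 451, 303 and 207 kb from the gene.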

How the data were processed

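Pax7 ChIP-seq and input libraries of Dox-treated iPax7 cells were grouped by their labels, 2 in each group. The authors aligned the reads to mm9, merged the libraries of each kind and called peaks with MACS2 at a q-value limit of 0.01, and they deposited 1 list. The deposited fold enrichment is a ratio of pooled ChIP signal to local background. The other columns the authors deposited are −log10 of the p-value, −log10 of the q-value, the summit offset and a score, which is −log10 q times 10 without its decimals. Columns that could not be tied to a sample or group numbered 0. Depth is unknown from the list, so intervals cover counting error only and none could be given for a peak.

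The 8 genes and the other lists were chosen with earlier results of these data known. Summits were placed on NCBIM37 with GENCODE vM1, 1-based, over chromosomes 1 to 19 and X. A summit was classed as within 1 kb of any annotated TSS, else exon, intron or intergenic. Gene start means the outermost annotated start. Motif searches covered both strands, 50 bp on each side of a summit and stretches of that length 500 bp away. Shares have 95% Wilson intervals, the density an exact Poisson interval, and the median an order-statistic interval. With 1 pooled list no test was made. Peaks named were, for each gene, the strongest, those within 1 kb of its TSS, those with a Pax motif, and all where a gene had 6 or fewer. The other peaks of Utrn and Lama2 named here, the comparison with windows of 0.8 to 1.25 times the length, and the start-site sequence of Lama2 were chosen after values were seen. Of the other pathway genes, 1 is not reported here. Of the remaining 24, those with a TSS peak and the 3 with the most peaks (4 by a tie) were named by rule. Others named were chosen after their values were seen. Stretches of sequence came from the NCBIM37 genome, and the promoter table at hand, of another build, was not used.

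Alternatives were windows of 50, 200 and 0 kb, a minimum of 5 for fold enrichment or −log10 q, joining peaks closer than 500 bp, overlap by 1 bp instead of the summit, 5 kb from a TSS, motif windows of 25 and 100 bp, and leaving out each gene. The procedures were tested on simulated data. Software was samtools 1.23.1, pyranges 0.1.4, pysam 0.24.0 and matplotlib 3.10.9 under Python 3.11.15, with scipy 1.17.1, pandas 2.3.3 and numpy 2.4.6. Other assays of the study were not analysed here.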

Additional observations from a re-analysis of the deposited data

How the results depend on the processing

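No paired analysis was possible because both replicates of each kind were merged before peaks were called, and for the same reason no replicate could be left out. The count of 53 peaks became 33 with gene bodies only and 33 with a fold enrichment of at least 5, at which the density fell to 0.748 peaks per 100 kb. It was 44 and 64 with windows of 50 and 200 kb, 50 with −log10 q of at least 5 and 51 after merging. The 22 other genes with a peak became 13 with gene bodies only. Sgca had no peak with 50 kb windows. Leaving out each gene gave 38 to 52 peaks (38 without Lama2), 1.06 to 1.60 peaks per 100 kb (1.60 without Sgcd), a median fold enrichment of 5.46 to 6.24, 57.9 to 66.0% of peaks at 5-fold or more, 6.12 to 13.2% within 1 kb of a TSS (lowest without Sgcb), 2.50 to 10.5% with a paired-box core (2.50% without Utrn) and 10.0 to 18.4% with any Pax motif. Chosen after the data were seen, counting only peaks with the listed gene as the nearest coding TSS gave 39 peaks, and leaving out the non-coding stretch of Sgcd gave 1.30 peaks per 100 kb. The merged list limits every statement to 1 pooled measurement, and groups of 1 to 15 peaks per gene leave wide intervals.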
